A study of Mus musculus with 16 samples.

Results

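RNA from P19CL6 cells after 4 days in medium with 1% DMSO was compared with RNA from the same line in growth. The comparison took all arrays that the labels give to these groups, 3 of DMSO day 4 and 3 of growth, which are 6 of the 16 arrays of the series. P19CL6 is a mouse embryonal carcinoma line, derived from P19 and selected for its capacity to form beating cardiac muscle in dimethyl sulfoxide (DMSO). Growth cultures were split every 48 h in alpha-MEM with 10% serum and no DMSO. Day 4 cultures had been plated once in that medium with 1% DMSO and refed every 48 h. All groups share the line, the basal medium and the serum, and no group was kept for 4 days without passage and without DMSO, so DMSO, time since plating and absence of passage cannot be told apart. The other 10 arrays, of days 6, 8, 10 and 12 in DMSO, are used as the later days against which day 4 was also set. The labels describe the samples of a group as independent.

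When embryonal carcinoma or epiblast cells leave pluripotency for mesoderm, they pass through a state like that of the primitive streak, the groove of the embryo where epiblast cells leave their epithelium and move inward. Nodal, Wnt, FGF and BMP ligands start this state, T-box and homeobox factors such as Eomes and Mixl1 carry it, and the repressor Snai1 takes down E-cadherin as cells migrate. The same gate serves mesoderm and definitive endoderm, for which reason the early stage is often called mesendoderm.

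Values are log2 signals from 1 probe set per gene, and 10802 genes with a probe set above a log2 value of 4 on at least 2 of the 16 arrays were tested. Signals under 4 are called dim. A gene was called higher or lower where limma's Benjamini-Hochberg adjusted p was under 0.05 and the group means lay 1 log2 or more apart. Where all 3 arrays of a group are dim, the fold is a lower bound, the brighter mean set against 4. Means are given with SD and n = 3 per group and differences with SE, and precision is limited by the number of arrays. Signals of different probe sets are on no common scale, so levels are compared between arrays and not between genes. A lower signal in such bulk RNA can stand for fewer cells of a type or for less RNA per cell, which cannot be told apart.

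The label was checked on marker genes. Mixl1, a homeobox gene of the primitive streak, gave 2.23, 2.21 and 2.74 on growth arrays A, B and C and 11.20, 12.48 and 12.28 on day 4 arrays A, B and C. Mesp1, a basic helix-loop-helix factor of the earliest cardiac mesoderm, gave 3.16, 2.65 and 2.66 and 10.60, 12.38 and 12.71. Neither gene was above the dim cutoff in growth. Eomes, a T-box factor of the streak, was at 7.95, 7.82 and 7.64 in growth and 11.25, 11.87 and 11.99 at day 4, and Pou5f1, the POU factor of pluripotency, at 14.12, 14.27 and 14.50 and 9.92, 11.62 and 12.14. For all 4 markers the arrays of the groups did not overlap, in the directions the label leads one to look for. Lack of overlap, in either direction, was found for 54.9% of all genes tested, so by itself it says little. Markers of definitive endoderm did not join them. Sox17, Foxa2 and Cer1 were dim on all 6 arrays and were not tested, as were Foxa1, Hhex, Hnf4a and Shh. The stage is therefore called day 4 here, and its mesodermal side is what the arrays show. The T gene was not analysed here.

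Between the groups, 2914 of 10802 genes were called, which is 27% of those tested. Of these, 1442 (13.3%) were higher and 1472 (13.6%) lower at day 4. Differences of 2 log2 or more were found for 470 genes that rose and 441 that fell, and of 4 log2 or more for 114 and 52. Growth was dim for 266 of the genes that rose, and day 4 was dim for 298 of those that fell. Arrays of the groups did not overlap for 5934 genes (54.9%), and for 2699 of the called ones. The lists that follow are counted over members that passed the filter on dim values. Those dim in growth or at day 4 passed it on arrays where they were high. The counts therefore describe these members and support nothing by themselves. Each count is to be read beside the 13.3% and 13.6% of all genes. Over all genes tested the correlation between arrays was 0.978 to 0.988 within growth, 0.977 to 0.985 within day 4 and 0.858 to 0.882 between them. The 3′ minus 5′ difference of the Actb control probe sets, a measure of RNA integrity, was 0.84 ± 0.13 at day 4 and 0.91 ± 0.04 in growth (two-sided exact permutation p = 0.5, where 0.1 is the smallest that 3 against 3 arrays can give, 1 after adjustment). The Actb difference from 3′ to the middle probe set was 1.08 ± 0.11 and 1.26 ± 0.04 (two-sided exact permutation p = 0.1, or 0.2 adjusted), the groups not overlapping, and its part in any result was not tested. For Gapdh the 3′ minus 5′ difference came to -0.30 ± 0.09 and -0.33 ± 0.03 (two-sided exact permutation p = 1). Control probe sets for 18S rRNA averaged 6.20 ± 0.21 at day 4 and 5.24 ± 0.38 in growth, without overlap, and what part this has in any result was not tested.

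**Figure D1:**
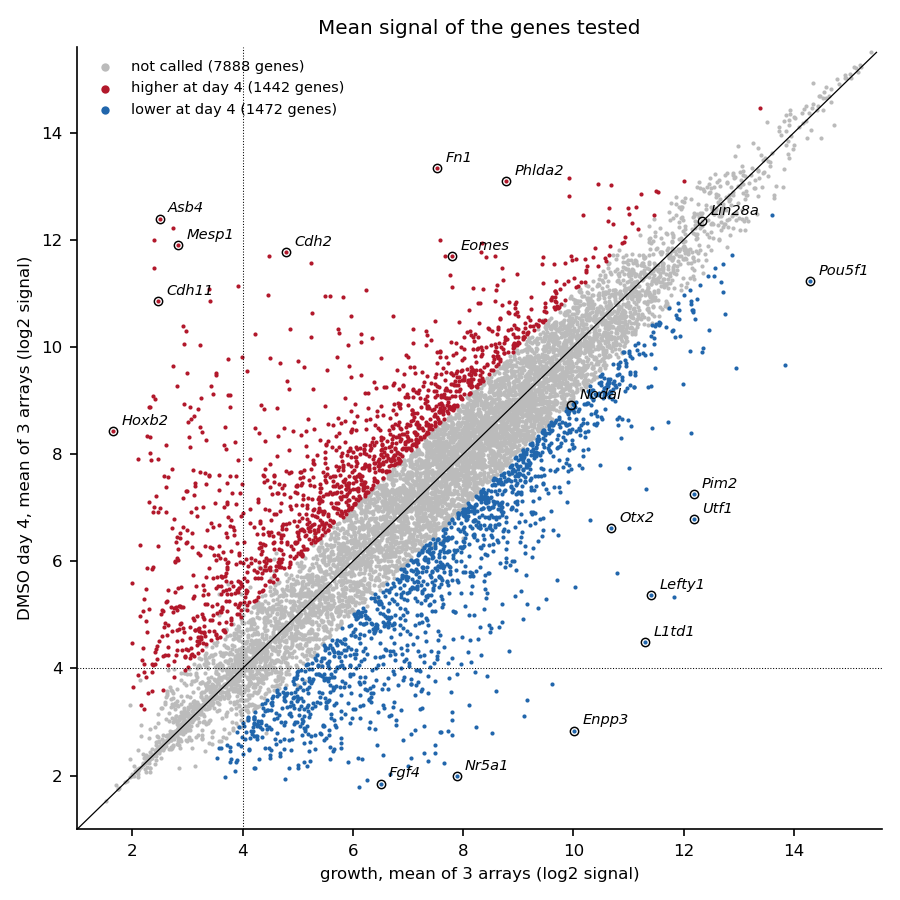
Mean log2 signal of each of the 10802 genes tested in growth (x axis, 3 arrays) and at DMSO day 4 (y axis, 3 arrays), with the 1442 genes called higher in red, the 1472 called lower in blue and dotted lines at the dim cutoff of 4. Asb4 lies highest above the line of equal signal, while Lin28a lies on that line and Nodal, also not called, below it.

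Genes of pluripotency went down unevenly. Of 17 tested genes shared by the naive and primed pluripotent states, 13 fell, 0 rose and 4 were not called, with a median difference of -2.60 log2 against -0.00 over all genes tested. Among all genes 13.6% fell. Day 4 was dim for 6 of the 13, which passed the filter only on other arrays, so the share is no evidence on the list. L1td1, an RNA-binding protein derived from a LINE-1 element, stood at 11.52, 10.95 and 11.44 in growth and 3.52, 4.97 and 4.99 at day 4, a fall of 6.81 log2 (adjusted p = 2.51e-09). Utf1, a chromatin-associated pluripotency factor, went from 12.18, 12.07 and 12.29 to 5.65, 6.94 and 7.74, 42.2-fold lower. The Ras protein Eras (at least 34.6-fold lower), the TGF-beta family ligand Gdf3 (at least 35.7-fold) and the forkhead repressor Foxd3 (at least 10.3-fold) reached the dim range on all 3 day 4 arrays. Pou5f1 itself fell by 3.07 log2 (adjusted p = 0.000321) and stayed far above the dim range on every day 4 array. Sox2, its partner on DNA, was at 10.42, 10.97 and 11.23 and then 7.80, 8.18 and 8.91, 5.96-fold lower.

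Not every gene of this group moved. Lin28a, the RNA-binding protein that blocks let-7 maturation, was at 12.23, 12.28 and 12.49 in growth and 12.20, 12.11 and 12.73 at day 4, a difference of 0.01 ± 0.46 log2 (adjusted p = 0.99). The zinc finger factor Sall4 was at 11.58, 11.18 and 11.47 and 11.18, 11.37 and 11.62, and the Lin28a-linked ubiquitin ligase Trim71 at 9.13, 9.32 and 9.44 and 9.14, 8.65 and 9.26. These 3 genes were each higher at day 4 than over days 6 to 12, by 3.52, 2.54 and 1.91 log2. The Polycomb cofactor Jarid2, the fourth, differed by -0.97 log2 (adjusted p = 0.00141), just short of the minimum difference. So at day 4 the arrays held high Lin28a and Sall4 signals next to L1td1 and Eras signals at or near the dim range.

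Naive pluripotency genes, those of the earliest epiblast, were largely silent already in growth: of 16, 9 were dim and untested, among them Esrrb, Zfp42, Tfcp2l1, Prdm14 and Dppa3. Of the 7 tested, 3 rose and 2 fell. Nanog, the homeobox factor, fell from 8.30, 7.44 and 7.94 to 3.64, 3.63 and 4.39 and Fgf4 from 5.93, 6.74 and 6.84 to 1.85, 1.85 and 1.84. Tbx3, a T-box repressor that also acts in mesoderm, went from 3.16, 3.16 and 3.38 to 10.36, 9.41 and 10.34 (at least 65.7-fold higher), and Klf4, a Krüppel-like factor, from 3.58, 3.54 and 3.57 to 6.19, 6.83 and 7.0 (at least 6.39-fold higher). The third, the homeobox gene Gbx2, was at 2.99, 6.19 and 6.27 at day 4 against 2.95, 2.87 and 2.82 in growth, with array A dim and arrays B and C above it. Tbx3 and Gbx2 were also above the later days.

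Genes of the primed epiblast, the state just before the streak, gave 9 falls (56.2%) and 3 rises (18.8%) among 16 tested. Of all genes tested 13.6% fell and 13.3% rose. Otx2, a homeobox factor of the anterior epiblast, was at 11.06, 10.30 and 10.69 in growth and 5.40, 7.22 and 7.24 at day 4 (16.7-fold lower, adjusted p = 2.51e-05). Sox3, Zic5 and Dnmt3a fell by 2.91, 3.01 and 1.74 log2. Against this majority Lef1, a nuclear partner of beta-catenin, rose by 3.71 log2, Sox11 by 1.77 and Lefty2 by 2.21. Lefty2, an antagonist of Nodal, was at 4.03, 3.02 and 3.36 in growth and 2.90, 7.21 and 6.93 at day 4. Its call was lost when replicate B or C of either group was left out (adjusted p 0.0747 to 0.151). Of 7 tested germline-type genes, those that pluripotent cells share with germ cells, 4 fell, led by the helix-loop-helix factor Tcfl5, which went from 9.34, 10.43 and 10.32 to 4.57, 5.65 and 6.32. Of the other list members, 11 were dim and untested. Day 4 was dim for 3 of the 4 that fell, so their share is no evidence on the list.

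The 20 largest falls without overlap took in genes outside these lists. Enpp3, an ectoenzyme that cleaves nucleotides, went from 9.32, 10.01 and 10.71 to 2.85, 2.84 and 2.82, the largest measured difference of all falls (-7.18 log2, at least 64.6-fold lower). The G protein subunit Gng3 was at 11.71, 11.98 and 11.79 and then 5.06, 5.77 and 5.20 (89.8-fold lower). Nr5a1, a nuclear receptor known from steroid-forming tissue, went from 8.15, 7.54 and 7.96 to 1.98, 1.99 and 1.98 (at least 14.8-fold lower). All 3 day 4 arrays lay below all growth arrays for each of these genes, which the rule that picked them required. The Notch regulator Dtx1 (at least 12.5-fold lower), the calcitonin receptor Calcr (at least 18.9-fold), the galanin receptor Galr2 (at least 11.2-fold), the protease inhibitor family member Wfdc2 (at least 11.2-fold) and the actin regulator Coro1a (at least 13.2-fold) were all dim on the 3 day 4 arrays and above the cutoff on every growth array. The slow skeletal troponin T gene Tnnt1 was at 9.46, 9.55 and 9.82 in growth and 3.01, 3.71 and 4.40 at day 4, a fall of 5.90 log2. The loci 1810010H24Rik and Gm11627 were among the 20 as well, with no role given here: the first was at least 23-fold lower and the other at least 13.9-fold.

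Transcription factors of the streak rose in number. Of 17 on the array, 12 were called higher, 0 lower and 1 not called, and 4 (Mesp2, Foxa2, Cdx1 and Cdx4) were dim and untested. Of the 12, 11 were dim in growth and passed the filter only on arrays of DMSO cultures, so their share of the 13 tested is no evidence on the list. Evx1, a homeobox gene of the posterior streak, was at 2.29, 2.36 and 2.29 in growth and 7.83, 8.19 and 8.92 at day 4, and Lhx1, a LIM homeobox gene, at 2.78, 2.69 and 2.72 and 7.71, 10.98 and 10.23. Sp5, a zinc finger target of Wnt signals, was at 2.42, 2.41 and 2.42 and 7.83, 9.39 and 9.89. Every growth array was dim for these 3 genes and every day 4 array above the cutoff, with array A the lowest. Tbx6, a T-box factor of paraxial mesoderm, went from 2.33, 2.27 and 2.30 to 6.47, 10.09 and 10.07, and Cdx2, a caudal homeobox gene, from 3.38, 2.77 and 2.63 to 8.33, 8.80 and 9.65. Gsc, a homeobox gene of the anterior streak, reached 4.95, 7.25 and 7.78 from 3.98, 3.65 and 3.67. Eomes was already on in growth, and rose by 3.90 log2 (14.9-fold, adjusted p = 1.96e-06). The member not called was Foxh1, a DNA-binding partner of Smad2, at 10.10, 9.68 and 10.14 and 8.45, 8.93 and 9.39. Without day 8 replicate A in the shared estimate of spread, 1 streak factor was called lower.

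**Figure D2:**
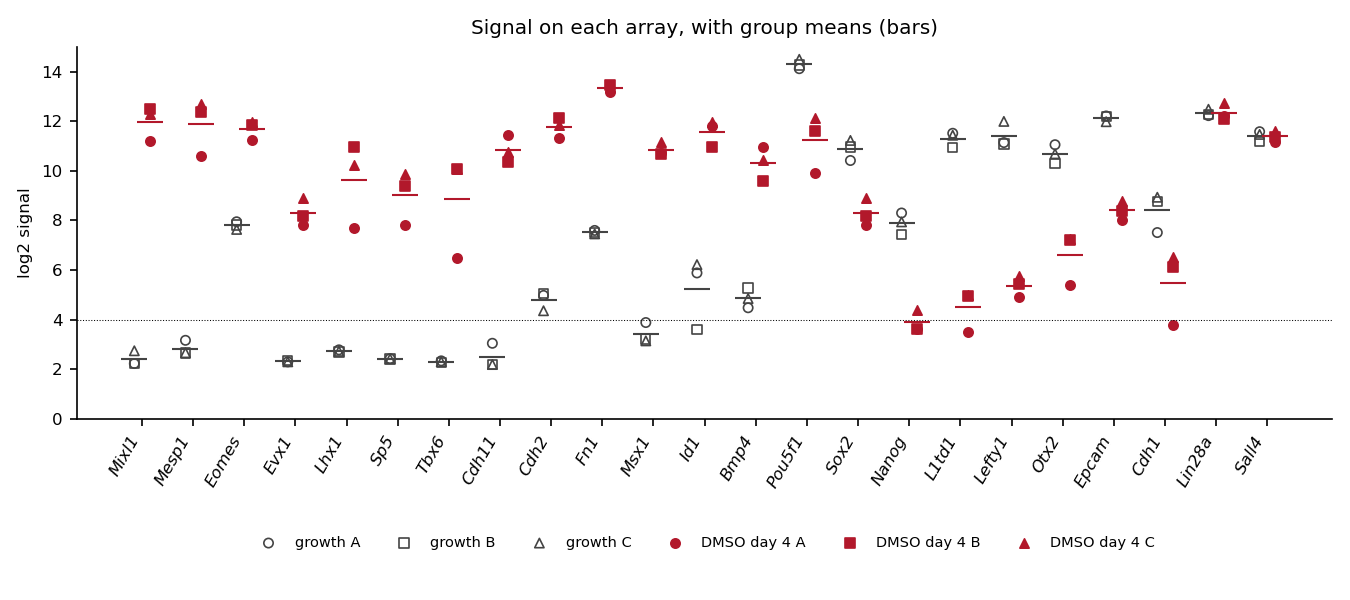
Log2 signal on each array (y axis) of 23 genes (x axis) in growth (open grey symbols) and at DMSO day 4 (filled red symbols), replicates A, B and C by shape, with bars at the group means and a dotted line at the dim cutoff. Mixl1, Mesp1, Evx1, Lhx1, Sp5 and Tbx6 on the left are dim in growth and above the cutoff on every day 4 array, and Lin28a and Sall4 on the right have the groups at one level.

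Among the 20 largest rises were several genes that are not streak regulators. Asb4, a substrate receptor of ubiquitin ligases, had the largest difference of all, from 2.51, 2.61 and 2.36 in growth to 12.01, 12.70 and 12.48 at day 4 (at least 337-fold higher, adjusted p = 3.7e-12). Klhl6, a BTB-kelch protein, went from 3.66, 3.40 and 3.10 to 10.57, 11.38 and 11.30. Prdm6, a PR-domain protein, went from 3.02, 2.66 and 3.13 to 10.33, 9.61 and 10.21. For all 3 genes the growth arrays were dim and the day 4 arrays lay close together. Cited2, a coactivator that binds CBP and p300, was at 3.49, 4.83 and 5.11 in growth and 11.57, 11.72 and 11.81 at day 4 (149.5-fold). The galectin Lgals3, a secreted lectin, was at 3.65, 3.61 and 4.48 and 11.76, 10.44 and 11.22 (149.5-fold). Growth array A was dim for both genes, and B for Lgals3, so these folds rest in part on values near background. Aplnr, the apelin receptor, rose to 9.67, 12.66 and 12.11 from 2.37, 2.33 and 2.45, with day 4 replicate A below the other two.

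Promoter sequences, from RefSeq on GRCm38.p6, were matched to 8784 of the 10802 genes (11332 listed starts), and the 250 bases before each start were searched on both strands for 9 short motifs. For Foxh1 the motifs were TGTGGATT and TGTGTATT. Smad proteins were given the short element GTCTGN, with any base last, and the GC-rich element GGCGCC. For TCF/LEF factors the letters were CTTTGAT, for T-box factors AGGTGTGA and for Pou5f1-type octamers ATGCAAAT. The E-box that Snai1 binds was written CAGGTG, and the TATA box TATAAA. The E-box and T-box motifs share letters and can overlap. The E-box CAGGTG was in 12.9% of the windows of genes called higher, 21.5% of those called lower and 15.2% of all. GGCGCC was in 20.7%, 13.9% and 17.3%, at a median GC content of 63.6%, 59.2% and 60.4%, and AGGTGTGA in 0.334%, 1.27% and 0.574%. GTCTGN was in 40.1%, 40.4% and 40.1%, CTTTGAT in 2.87%, 2.3% and 2.32%, ATGCAAAT in 1.54%, 1.39% and 1.15%, TATAAA in 6.28%, 6.19% and 6.23%, TGTGGATT in 0.334%, 0.424% and 0.415%, and TGTGTATT in 0.401%, 0.424% and 0.547%. These shares are descriptions, since base composition differed between the sets.

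The 5 windows that follow are printed because they belong to genes of the largest changes or to markers, have 1 listed start and hold a TCF/LEF, T-box or octamer match. Each runs 5′ to 3′ on the strand of the gene and ends at the base before the start, and capitals mark every match to the 9 motifs on either strand.
Mesp1: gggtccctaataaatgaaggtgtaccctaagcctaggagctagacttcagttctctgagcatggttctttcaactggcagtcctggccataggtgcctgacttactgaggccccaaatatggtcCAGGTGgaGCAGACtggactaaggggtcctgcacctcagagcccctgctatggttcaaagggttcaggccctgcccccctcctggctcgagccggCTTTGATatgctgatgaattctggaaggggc
Sp5: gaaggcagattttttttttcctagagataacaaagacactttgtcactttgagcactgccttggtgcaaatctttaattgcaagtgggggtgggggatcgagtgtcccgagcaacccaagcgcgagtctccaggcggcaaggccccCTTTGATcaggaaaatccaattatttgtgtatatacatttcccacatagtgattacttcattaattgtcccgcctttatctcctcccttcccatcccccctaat
Evx1: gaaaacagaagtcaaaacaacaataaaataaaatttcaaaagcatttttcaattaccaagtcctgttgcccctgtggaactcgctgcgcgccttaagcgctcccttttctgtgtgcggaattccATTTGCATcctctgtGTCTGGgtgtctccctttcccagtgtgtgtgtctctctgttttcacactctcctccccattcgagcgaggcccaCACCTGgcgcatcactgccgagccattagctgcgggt
Hoxd9: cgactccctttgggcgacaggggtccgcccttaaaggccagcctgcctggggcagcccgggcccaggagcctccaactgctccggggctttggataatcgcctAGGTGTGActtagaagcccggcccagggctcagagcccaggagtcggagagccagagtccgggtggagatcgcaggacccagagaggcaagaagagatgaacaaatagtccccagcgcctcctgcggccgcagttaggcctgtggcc
Pim2: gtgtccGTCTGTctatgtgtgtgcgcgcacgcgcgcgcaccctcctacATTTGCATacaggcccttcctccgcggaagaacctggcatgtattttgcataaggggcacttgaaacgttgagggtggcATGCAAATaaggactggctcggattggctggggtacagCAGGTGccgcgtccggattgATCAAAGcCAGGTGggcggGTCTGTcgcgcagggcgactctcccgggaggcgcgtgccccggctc
The Mesp1 window (chr7:79793591-79793840, minus strand) has a TCF/LEF match beginning 31 bases before the start and a CAGGTG 126 bases before it. Sp5 (chr2:70474673-70474922, plus strand) has a TCF/LEF match 104 bases before the start. Evx1 (chr6:52313248-52313497, plus strand) has an octamer in reverse orientation 126 bases before the start, and Hoxd9 (chr2:74697513-74697762, plus strand) a T-box match 147 bases before it. The kinase gene Pim2 (chrX:7878056-7878305, plus strand), which fell from 12.26, 11.97 and 12.33 to 6.88, 7.35 and 7.54, has octamers 202 and 123 bases before its start, with CAGGTG at 85 and 57 bases. The windows of Eomes, Kdr, Klhl6, Foxd3, Sox2, Dtx1 and Nodal held none of the 9 motifs. A match is a description of letters and not evidence of binding.

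Genes known from mesoderm of the side plate and heart field rose in part. Of 20 genes of lateral and cardiac mesoderm on the array, 18 were tested, 11 rose (61.1%) and 0 fell, against 13.3% and 13.6% of all genes. Growth was dim for 9 of the 11. The surface receptors came up far: Pdgfra, a PDGF receptor, went from 2.83, 2.44 and 1.85 to 7.70, 10.12 and 9.44, and Kdr, the VEGF receptor of early mesoderm, from 2.48, 2.47 and 1.99 to 8.09, 9.22 and 9.33. Gata4 and Gata6, zinc finger factors of heart and gut, reached 8.33, 7.59 and 8.85 and 8.04, 8.23 and 8.42 from 3.05, 3.55 and 3.39 and 3.40, 4.20 and 3.98. Smarcd3, a cardiac subunit of the BAF chromatin complex, went from 2.58, 2.81 and 4.41 to 9.34, 7.65 and 8.27. Tbx20 rose by 4.78, Foxf1 by 3.59, Hand1 by 2.89 and Isl1 by 2.84 log2, and Hand1, Isl1, Tbx20, Gata6 and Smarcd3 were all still below the mean of the later days. Cardiac factors that mark later steps, Nkx2-5, Tbx5, Mef2c, Gata5 and Myocd, were dim on all 6 arrays. Hand2 was at 4.30, 3.66 and 4.16 at day 4 and 3.51, 3.42 and 2.62 in growth, with no call.

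Genes of paraxial mesoderm, the source of the somites, gave 6 rises (54.5%) and 0 falls among 11 tested. Of all genes tested 13.3% rose and 13.6% fell. Of the 18 on the array, Meox1, Meox2, Tcf15, Ripply2, Mesp2, Foxc2 and Uncx were dim and untested. Growth was dim for 4 of the 6 that rose, so the share is no evidence on the list. The Notch ligands Dll1 and Dll3 went from 2.75, 2.74 and 2.75 to 4.33, 7.82 and 8.23 and from 3.60, 3.56 and 4.17 to 7.23, 10.27 and 9.79. Rspo3, a secreted enhancer of Wnt signals, went from 4.17, 2.98 and 3.38 to 8.49, 10.02 and 10.01. Tbx6, also a member here, is given above. Msgn1, a factor of the presomitic mesoderm, was dim in growth and at 1.96, 6.28 and 5.18 at day 4, and Pcdh8, a protocadherin of the same tissue, was at 2.90, 5.78 and 5.85. Both were dim on day 4 replicate A. Without day 4 replicate C the adjusted p of Pcdh8 was 0.0501 and it was no longer called. Hes7 and Lfng, oscillating genes of the segmentation clock, were at 2.93, 6.05 and 7.19 and 3.04, 5.08 and 5.08 at day 4 with no call against growth (adjusted p = 0.0741 and 0.227), and the somite factor Pax3 was dim on all 6 arrays.

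Lists for other tissues were mostly dim or mixed. Of 14 definitive endoderm genes on the array 8 were dim on all 6 arrays. Of the 6 tested, 3 rose (Gsc, Cdx2 and the chemokine receptor Cxcr4, all of which the streak or mesoderm also expresses) and 3 fell: Foxa3, Trh and Apela, by 2.72, 3.52 and 3.18 log2. Cxcr4 was at 6.42, 6.64 and 6.75 in growth and 8.81, 9.38 and 9.54 at day 4. In the extraembryonic endoderm list the 5 genes that rose were the matrix genes Lama1, Lamb1, Col4a1 and Col4a2 and the hormone receptor Pth1r, while Ttr and Afp, secreted proteins that define the yolk sac, were dim on all 6 arrays. Foxq1 fell by 2.03 log2. Of the trophoblast list, 9 of 12 genes were dim on all 6 arrays, and Gata2 and Gata3 rose by 1.65 and 2.58 log2. In the blood and endothelium list Etv2, an ETS factor that starts the endothelial and blood lineage, went from 5.21, 4.68 and 4.63 to 6.95, 7.49 and 8.49 and Lmo2, a LIM-domain partner of blood factors, from 3.52, 3.92 and 3.65 to 4.31, 7.49 and 7.80. Cdh5, Pecam1, Tek and the embryonic globins Hbb-bh1 and Hba-x were dim on all 6 arrays, and the VEGF receptor Flt1 fell from 8.85, 8.19 and 8.28 to 5.39, 5.01 and 5.84.

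Of 18 genes of the neural list on the array, 8, among them Sox1, Pax6 and Neurog2, were dim and untested. Among the 10 tested, 7 fell (70%) and 0 rose, against 13.6% and 13.3% of all genes. The summed signal of the 18 genes was 12.70 to 13.03 in growth and 9.36 to 10.26 at day 4. Gng3 and the peptide gene Npy led, the latter from 10.72, 10.15 and 11.49 to 5.34, 6.11 and 5.88, followed by Stmn2 (fell by 3.02), Tubb3 (1.95), Nes (1.59), Gap43 (1.59) and Stmn3 (1.58), genes of microtubules, intermediate filaments and growth cones. The transcription factor Zic1 was at 8.29, 8.72 and 8.82 and 8.09, 8.70 and 9.15 with no call, and Ncam1 and Map2 were not called either. Of the 18 genes, 9 were dim on all 6 arrays, and 1 neural gene was called higher without growth replicate C. Fibroblast genes were dim on all 6 arrays in 10 of 12 cases, some of them tested because later arrays exceeded the cutoff, and the summed signal of that list was 8.50 to 8.88 in growth and 9.57 to 10.06 at day 4, with Fbln1 the only 1 of its 8 tested members that rose. In the muscle contraction list 1 of 10 genes rose and 1 fell. Tnni1, a troponin I, rose to 6.04, 4.76 and 5.60 from 2.92, 2.73 and 2.26. The fall, of Des, was lost without any 1 of the growth or day 4 arrays (adjusted p 0.0609 to 0.127), and Tnnt2, Myh6 and Myl4 were dim on all 6 arrays. The summed signals of growth and day 4 were 12.35 to 12.51 and 12.66 to 13.20 for extraembryonic endoderm, 6.90 to 7.17 and 7.64 to 8.64 for trophoblast, 9.71 to 10.07 and 9.04 to 10.01 for blood, 7.33 to 7.62 and 7.56 to 8.26 for muscle, and 8.97 to 9.44 and 9.82 to 10.86 for definitive endoderm. What part any other cell type has in the differences was not tested.

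**Figure D3:**
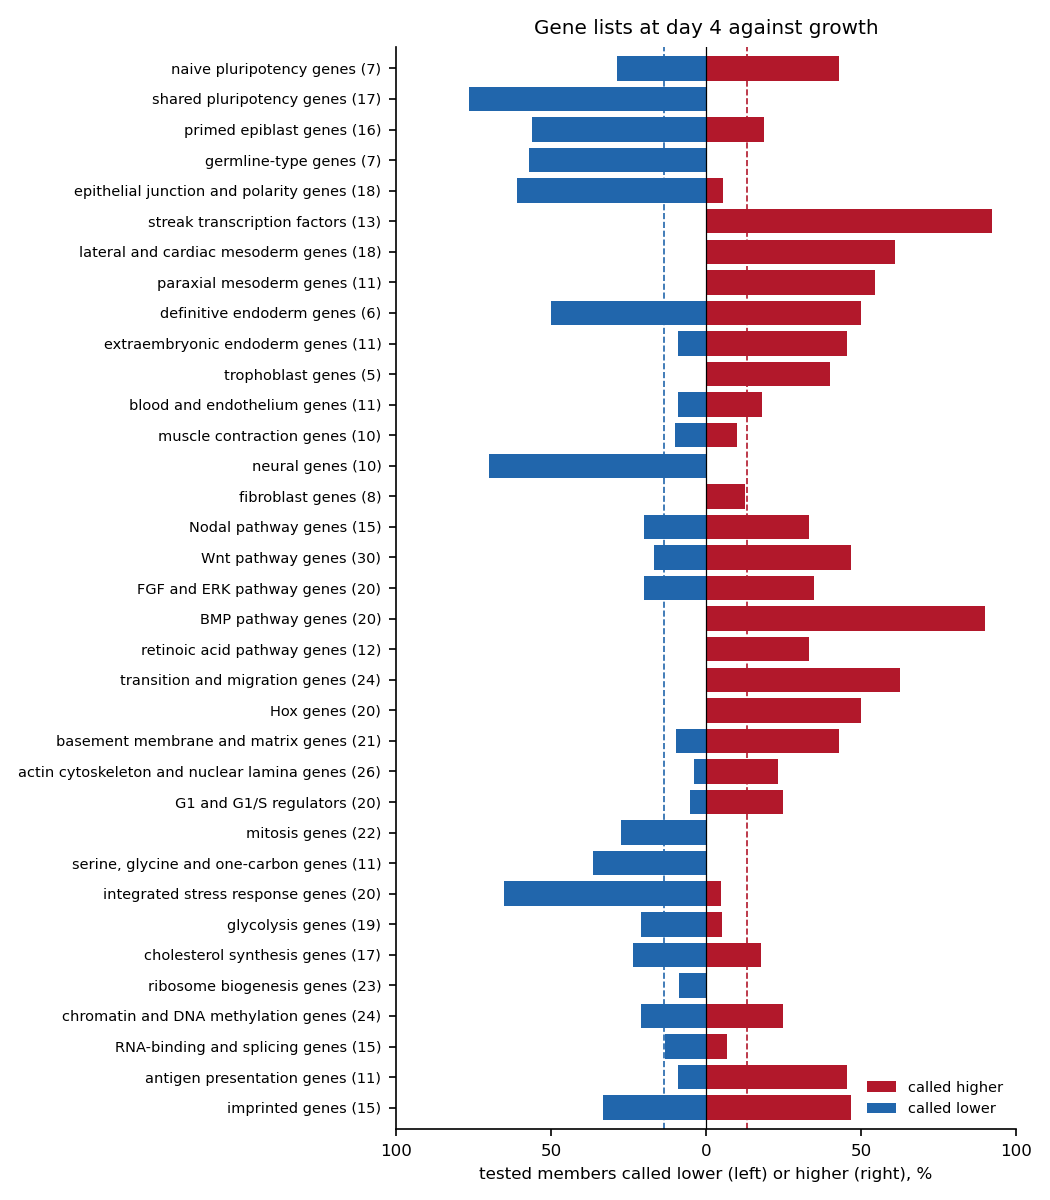
Share of the tested members of each of 35 gene lists called lower (blue, to the left) or higher (red, to the right) at day 4 against growth, in percent, with the number tested in brackets and dashed lines at the shares over all genes (13.6% and 13.3%). BMP pathway genes and streak transcription factors reach 90 and 92.3% higher, and shared pluripotency genes 76.5% lower. Of the 12 streak factors that rose, 11 were dim in growth and passed the filter only on arrays of DMSO cultures. The same holds for 5 of the 18 BMP genes that rose. Of the 13 shared pluripotency genes that fell, 6 were dim at day 4 and passed the filter only on other arrays. The shares thus describe the tested members and are no evidence on a list. Members dim and untested are left out of the shares.

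Among the signalling pathways the BMP list had 24 genes on the array, of which 20 were tested, 18 rose (90%) and 0 fell. Of all genes tested 13.3% rose and 13.6% fell. Growth was dim for 5 of the 18 and above the cutoff on an array or more for the others. The ligand Bmp4 went from 4.48, 5.28 and 4.85 to 10.96, 9.59 and 10.43 (44-fold higher), Bmp2 from 2.71, 2.70 and 1.99 to 6.29, 7.12 and 7.32, and Bmp7 from 2.89, 2.62 and 3.08 to 7.21, 5.55 and 6.55. The signal carriers Smad1 and Smad5 rose by 2.54 and 1.22 log2. Genes known as direct targets rose with them. Id1, a helix-loop-helix inhibitor, was at 5.88, 3.61 and 6.22 in growth and 11.81, 10.96 and 11.96 at day 4, and the homeobox genes Msx1 and Msx2 rose by 7.44 and 6.04 log2. Inhibitors rose too: the inhibitory Smad6 from 4.57, 4.22 and 4.40 to 9.43, 8.25 and 8.82, the decoy receptor Bambi by 4.83 log2, the extracellular modulator Bmper by 6.09 and follistatin, Fst, from 6.40, 6.24 and 5.80 to 8.09, 11.13 and 11.05. The members not called were the antagonist Nog, dim on all 6 arrays, and the receptor Bmpr1a (0.54 log2, adjusted p = 0.0425, under the minimum difference).

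The Nodal list split. Of 15 tested genes 5 rose (33.3%) and 3 fell (20%), against 13.3% and 13.6% of all genes. The number of rises was 3 with replicate B or C of either group left out. The ligand Nodal was at 10.0, 9.96 and 9.91 in growth and 7.62, 9.30 and 9.84 at day 4, with array A low and no call (adjusted p = 0.097). Its coreceptor Tdgf1 was at 10.85, 10.40 and 11.23 and 6.06, 9.84 and 10.16. The call of Tdgf1 (fell by 2.14 log2, adjusted p = 0.0373) was lost without day 4 replicate A, when the difference was -0.82 (adjusted p = 0.101), and without any 1 of the growth replicates (adjusted p 0.0517 to 0.107). The antagonist Lefty1 went down from 11.14, 11.09 and 12.0 to 4.90, 5.45 and 5.74, 66-fold lower, while the linked gene Lefty2 was higher. The third fall was that of Gdf3. The transducers Smad3 (1.54), Acvr2a (1.02) and Acvr2b (1.07) and the protease Furin (1.55 log2) rose.

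In the Wnt list 14 of 30 tested genes rose (46.7%) and 5 fell (16.7%), against 13.3% and 13.6% of all genes. The number of falls was 3 without growth replicate C. Growth was dim for 5 of the 14, and 3 more genes on the array were dim and untested. Of the ligands, Wnt3a was dim in growth and at 4.02, 6.29 and 6.29 at day 4, Wnt5b went from 4.73, 3.60 and 4.05 to 7.27, 8.08 and 8.38 and Wnt5a from 3.61, 4.06 and 3.36 to 8.12, 8.75 and 8.67. Wnt3, the ligand that starts the streak, was at 4.25, 5.25 and 6.96, highest on array C. Its rise of 1.73 log2 was 0.99 without day 4 replicate C. Genes known as targets rose in number: Axin2 from 6.17, 5.80 and 5.74 to 9.81, 10.0 and 10.29, Dkk1 from 3.38, 2.50 and 2.53 to 8.72, 9.76 and 9.35, Nkd1 by 3.27, Znrf3 by 2.10 and Lef1 by 3.71 log2. Among the receptors Fzd7 rose (7.22, 7.72 and 7.51 to 10.28, 10.57 and 10.60) and Fzd5 fell (8.31, 8.50 and 8.66 to 6.73, 6.51 and 6.64). Tcf7l1, the TCF that acts as a repressor in pluripotent cells, fell by 1.33 and the receptor Lgr4 by 1.54 log2. The falls of Porcn and Sfrp1 were called too, but Porcn was at -0.97 without growth replicate C, and the call of Sfrp1 was lost without any 1 of the 6 arrays (adjusted p 0.0692 to 0.115). Of the 14 that rose, all but Fzd1 and Fzd7 were also higher at day 4 than over the later days.

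Of the 20 tested genes of the FGF and ERK list 7 rose (35%) and 4 fell (20%), against 13.3% and 13.6% of all genes. Growth was dim for 3 of the 7 and day 4 for 3 of the 4. Fgf4 and Fgf15, ligands of pluripotent cells, went dim: Fgf15 was at 6.84, 6.68 and 7.20 in growth and 2.79, 2.13 and 3.06 at day 4. Fgf8, the streak ligand, went from 2.11, 2.10 and 2.10 to 6.13, 8.51 and 9.10, and Fgf3 and Fgf17 rose from the dim range to 5.32, 4.11 and 6.17 and 4.40, 4.13 and 4.64. Of 8 feedback inhibitors of ERK in the list 4 rose: Dusp4 from 7.07, 8.06 and 7.86 to 11.31, 11.60 and 12.18, Il17rd by 2.46, Spred1 by 1.36 and Dusp6 by 1.31 log2. The ETS factor Etv4 went against them, at 5.60, 6.67 and 6.28 and 5.01, 3.52 and 4.44 (fell by 1.86). Fgf5, a ligand of the primed epiblast, was at 4.27, 3.89 and 5.46 in growth and 2.68, 3.56 and 3.69 at day 4, and its fall was under the minimum difference without growth replicate C or day 4 replicate A (-0.77 and -0.91). The inhibitors Spry1, Spry4 and Spred2 were not called, at differences of 0.32, 0.71 and 0.38 log2, and Spry2 was dim and untested. The receptor Fgfr1 was not called either, at 0.31 log2.

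In the retinoic acid list 4 of 12 tested genes rose (33.3%) and 0 fell, against 13.3% and 13.6% of all genes. Growth was dim for 2 of the 4. Cyp26a1, the hydroxylase that clears retinoic acid, went from 2.62, 2.60 and 3.02 to 11.51, 12.57 and 12.55 (at least 297-fold higher). The binding proteins Crabp1 and Crabp2 rose by 2.33 and 2.89 log2. Aldh1a2, the synthesizing enzyme, was at 2.56, 3.69 and 4.53 at day 4 against 2.59, 2.56 and 2.52 in growth, above the cutoff on array C alone. Its call was lost without any 1 of the growth replicates and without day 4 replicate B or C (adjusted p 0.0786 to 0.205). The receptors Rara, Rarb and Rarg were not called, and 1 gene of the list was called lower without growth replicate B or day 4 replicate C.

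Of 25 epithelial junction and polarity genes on the array, 7 were dim and untested. Among the 18 tested, 11 fell (61.1%) and 1 rose (5.56%), against 13.6% and 13.3% of all genes. Day 4 was dim for 5 of the 11, which passed the filter only on other arrays. The 6 not called were Cldn7, Grhl2, Lsr, Pard6b, Krt8 and Krt18. Cdh1, E-cadherin, was at 7.51, 8.76 and 8.94 in growth and 3.76, 6.13 and 6.54 at day 4 (7.60-fold lower, adjusted p = 0.00214), and Epcam at 12.22, 12.21 and 11.99 and 8.03, 8.38 and 8.80. The claudin Cldn6 went from 5.95, 7.10 and 7.97 to 2.15, 2.15 and 2.23, and Esrp1, the splicing factor of epithelia, from 5.44, 8.31 and 7.39 to 2.24, 2.32 and 2.42. The desmosome gene Dsp rose from 4.05, 6.01 and 6.52 to 10.09, 9.03 and 9.61. The keratins Krt8 and Krt18 were not called, with array A high and array B low, at 10.24, 6.83 and 8.13 and 9.26, 4.98 and 7.23. Without day 4 replicate B a second member was called higher.

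Genes of the transition to migrating cells rose in 15 of 24 cases (62.5%) and fell in 0, with growth dim for 5 of the 15. Of all genes tested 13.3% rose and 13.6% fell. Snai1, the repressor of Cdh1, went from 2.66, 3.04 and 3.07 to 9.15, 11.08 and 10.94 (at least 84-fold higher). Cdh2, N-cadherin, went from 4.97, 5.05 and 4.36 to 11.32, 12.13 and 11.87 and Cdh11, a cadherin of mesenchyme, from 3.04, 2.19 and 2.19 to 11.45, 10.36 and 10.78. In the same cultures Cdh1 was thus lower and both Cdh2 and Cdh11 higher on every array. Nrp1, a coreceptor of VEGF and semaphorins, went from 3.18, 3.25 and 2.53 to 9.68, 9.12 and 9.76, and the chemokine receptor Ackr3 from 2.69, 2.13 and 2.15 to 6.18, 9.11 and 8.76. Snai2 rose by 1.83 log2 and was 5.0 log2 below the later days, and Twist1 was dim on all 6 arrays. Vim, the filament of mesenchymal cells, went from 10.33, 10.75 and 10.79 to 12.59, 12.24 and 12.21.

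In the matrix list 9 of 21 tested genes rose (42.9%) and 2 fell (9.52%), against 13.3% and 13.6% of all genes. The number of falls was 0 without day 4 replicate B or growth replicate B or C. Fibronectin, Fn1, was at 7.60, 7.51 and 7.46 in growth and 13.19, 13.46 and 13.37 at day 4, 56.4-fold higher, with arrays of a group close together. The basement membrane chains Lama1, Lamb1, Col4a1 and Col4a2 rose by 2.88, 2.31, 1.80 and 2.39 log2, and the fibrillin Fbn2 by 4.59. Of 26 tested genes of the actin cytoskeleton and lamina 6 rose (23.1%) and 1 fell (3.85%). Alpha-actinin, Actn1, rose by 1.74 log2 and the beta-tropomyosin gene Tpm2 fell by 1.38. In that list 2 genes, not 1, were called lower without growth replicate A, day 4 replicate C or day 8 replicate A.

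Hox genes, which set position along the body axis, rose in 10 of 20 tested cases (50%) and fell in 0. Of the 30 on the array, 10 were dim and untested. Growth was dim for 8 of the 10 that rose, so the share is no evidence on the list. Of all genes tested 13.3% rose. Hoxb1, a gene at the 3′ end of its cluster, used early in the streak, was at 2.41, 2.44 and 2.43 in growth and 3.81, 9.29 and 8.58 at day 4. Hoxb2 went from 1.55, 1.59 and 1.82 to 7.85, 8.82 and 8.60, Hoxd8 from 3.19, 3.35 and 3.14 to 8.72, 8.34 and 8.45 and Hoxd9 from 4.01, 2.58 and 2.34 to 10.10, 10.21 and 10.57. Hoxb9 and Hoxd1 reached 5.66, 5.25 and 5.68 and 5.22, 3.95 and 6.20. Of genes at the 5′ end of their clusters, Hoxd10 was dim on all 6 arrays and not called, and Hoxa13, Hoxb13, Hoxd11 and Hoxd13 were dim and untested. The other called members were Hoxa2, Hoxa3, Hoxb3 and Hoxd3. No gene of the HoxC cluster was called: Hoxc4, Hoxc6 and Hoxc10 were dim on all 6 arrays, and Hoxc8 was at 4.37, 2.77 and 2.75 at day 4. The rest of the 10 members with no call were Hoxa5, Hoxa9, Hoxa10, Hoxb4, Hoxb5 and Hoxd10.

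Chromatin genes changed in both directions, 6 up (25%) and 5 down (20.8%) among 24 tested, against 13.3% and 13.6% of all genes. The methyltransferases of new DNA methylation fell together: Dnmt3b from 12.13, 12.31 and 12.58 to 9.61, 10.10 and 10.03, Dnmt3a from 10.55, 11.19 and 11.35 to 9.48, 9.24 and 9.16, and their cofactor Dnmt3l from 4.33, 5.81 and 6.05 to the dim range. Tet1, which oxidizes methylcytosine, fell by 1.29 log2 and Tet2 rose by 1.16. In the Polycomb complex PRC1 the chromodomain subunit Cbx7 went from 8.45, 8.43 and 8.51 to 5.04, 3.71 and 5.67 (12.6-fold lower) while Cbx2 (1.52), Cbx8 (1.68) and Bmi1 (2.87 log2) rose. Smarcc2, of the BAF complex, rose by 1.71 log2. Hmga2, an architectural chromatin protein, went from 7.74, 7.95 and 7.58 to 11.41, 11.52 and 11.10. In the list of RNA-binding and splicing genes 2 of 15 fell, L1td1 and Esrp1, and Mbnl3 rose by 1.43 log2. The call of Mbnl3 was lost without day 4 replicate C (adjusted p = 0.0559), and 2 members were called higher without day 4 replicate A or day 8 replicate A.

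Of 22 tested mitosis genes 6 fell (27.3%, against 13.6% of all genes) and 0 rose, with a median difference of -0.73 log2 against -0.00 over all genes. Plk1, the polo-like kinase, was at 11.28, 10.97 and 10.86 in growth and 9.87, 9.86 and 9.79 at day 4, Aurka at 11.05, 10.46 and 10.51 and 9.32, 9.15 and 9.0, and Bub1b at 10.07, 10.09 and 10.12 and 8.96, 8.71 and 8.75. For these 3 genes every day 4 array lay below every growth array, and 54.9% of all genes tested had no overlap in either direction. The falls of Cdc25c and Ube2c went under the minimum difference without 1 array, Cdc25c without growth replicate B (-0.90) or day 4 replicate B (-0.83) and Ube2c without growth replicate A (-0.96). Of 20 regulators of G1 and of entry into S phase 5 rose (25%) and 1 fell (5%). Ccnd2, a D-type cyclin, went from 8.82, 7.84 and 7.38 to 10.60, 9.93 and 10.01, Ccne2 from 4.93, 5.94 and 5.63 to 7.64, 7.90 and 8.24 and Myc from 7.75, 6.90 and 7.38 to 10.80, 9.50 and 10.38. Rb1 and E2f3 were the other 2, and E2f3 was under the minimum difference without growth replicate A or day 4 replicate A or C (0.96 to 0.97). The cyclin E gene Ccne1 fell by 1.21 log2, or by 0.94 without growth replicate A, under the minimum difference.

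Genes of the integrated stress response, which Atf4 turns on when amino acids run short, fell in 13 of 20 cases (65%) and rose in 1 (5%). Of all genes tested 13.6% fell and 13.3% rose. Trib3, a pseudokinase, went from 11.22, 11.24 and 11.51 to 8.07, 6.77 and 7.22, Atf3 from 7.99, 6.92 and 7.67 to 4.36, 4.27 and 4.08, and Cebpb from 9.75, 10.34 and 10.81 to 7.64, 5.60 and 7.07. The transporters Slc7a3, Slc7a5, Slc3a2 and Slc7a11 fell by 2.10, 1.85, 1.54 and 1.97 log2, and the tRNA synthetases Aars, Gars and Wars by 2.14, 1.10 and 1.61. Against them Vldlr, a lipoprotein receptor, rose from 7.68, 8.64 and 8.21 to 10.55, 11.33 and 11.42. In the serine and one-carbon list 4 of 11 genes fell (36.4%): Psph (2.13), Mthfd1 (1.34), Mthfd2 (1.26) and Psat1 (1.17 log2). Without growth replicate B or day 4 replicate C, 1 gene of that list was called higher.

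Of 19 glycolysis genes 4 fell (21.1%) and 1 rose (5.26%), against 13.6% and 13.3% of all genes. The number of falls was 1 without day 4 replicate B, and that of rises 2 without day 4 replicate A. Hk1, a hexokinase, was at 7.83, 7.58 and 8.20 in growth and 6.58, 5.91 and 6.62 at day 4, and Pfkp, a phosphofructokinase, rose by 1.45 log2. In cholesterol synthesis 4 of 17 genes fell (23.5%) and 3 rose (17.6%). Idi1, Fdps, Pmvk and Dhcr7 fell by 1.58, 1.39, 1.70 and 1.11 log2, while Hmgcs1, an early enzyme of the route, rose by 1.29 and the regulator Srebf2 by 1.19. Srebf2 was under the minimum difference, at 0.96, without day 4 replicate C. Ribosome biogenesis genes fell in 2 of 23 cases (1 without growth replicate A or C or day 4 replicate B), under the 13.6% of all genes.

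Antigen presentation and interferon-linked genes rose in 5 of 11 cases (45.5%) and fell in 1 (9.09%), against 13.3% and 13.6% of all genes. The fall was that of H2-D1 (-1.16 log2), which was not called without growth replicate B or C (-0.98 and -0.91). The rise of Psmb8 was 0.56 log2 with values under 4 set to 4 and 0.08 with no dim filter, without a call in either. Ifitm1, a membrane protein of migrating mesoderm, went from 4.22, 4.56 and 4.60 to 10.18, 11.48 and 11.23 (90.8-fold higher), Irf1, an interferon regulatory factor, from 6.45, 6.46 and 6.64 to 9.70, 9.71 and 9.96, and Tapbp, which loads peptides, from 6.03, 6.09 and 6.35 to 9.26, 9.33 and 9.82. All 3 were also higher at day 4 than over the later days, by 3.13, 3.31 and 2.97 log2.

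Of 15 tested imprinted genes, expressed from 1 parental allele, 7 rose (46.7%) and 5 fell (33.3%), against 13.3% and 13.6% of all genes. Igf2, the growth factor, went from 4.98, 5.70 and 5.05 to 11.94, 8.63 and 9.99, Phlda2, a pleckstrin-homology protein of the placenta, from 8.30, 9.30 and 8.76 to 13.33, 13.11 and 12.86 (19.9-fold higher), and Peg3 from 10.39, 11.03 and 10.64 to 13.29, 12.88 and 12.88. Ndn, Igf2r and Sgce rose by 2.10, 1.76 and 1.28 log2, and Sgce was at 0.98 without day 4 replicate A. The hydrolase Mest went from 12.13, 11.90 and 11.95 to 10.32, 8.43 and 9.19, the zinc finger gene Plagl1 from 11.84, 12.16 and 12.35 to 9.70, 10.11 and 9.95, Magel2 from 8.20, 8.21 and 8.03 to 5.86, 5.26 and 5.12, Grb10 from 4.23, 6.30 and 6.11 to 3.42, 3.61 and 4.28 and Snrpn from 5.63, 5.53 and 5.55 to 2.72, 2.82 and 2.72. Ndn and Magel2, neighbours in one imprinted region, were thus called in opposite directions.

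To see which of these levels belonged to day 4, the same arrays were also set against the mean of days 6, 8, 10 and 12. The comparisons share the 3 day 4 arrays, so an array that reads high or low moves both, and the counts below are descriptions. Against the later days alone 768 genes (7.11%) were higher at day 4 and 1220 (11.3%) lower. Higher than both growth and later days were 357 genes (3.3%), and lower than both 242 (2.24%). The 12 streak factors that rose were all among the 357. Mixl1 was at 2.39 ± 0.30 in growth, 11.99 ± 0.69 at day 4, 3.72 at day 6 and 2.18 at day 12. Mesp1 was at 5.13 by day 6 and 2.75 by day 8, and Tbx6 at 2.90 and 2.32. Cyp26a1 and Snai1 declined more slowly, with 7.83 and 6.55 at day 6 and 4.87 and 5.14 at day 8. Mixl1, Mesp1, Cyp26a1, Aplnr, Lhx1, Tbx6, Sp5, Snai1, Evx1 and Fgf8 were the 10 with the largest excess over both.

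The genes lowest at day 4 are of other kinds. Lrp2, the endocytic receptor megalin, was at 8.16, 8.71 and 8.91 in growth, 3.37, 4.05 and 3.33 at day 4 and 7.68, 8.70, 7.10 and 6.83 on average at days 6, 8, 10 and 12. Pkdcc, a secreted tyrosine kinase, went from 9.86, 8.86 and 9.34 to 5.14, 4.79 and 5.43 and averaged 7.78 at day 6. Kcnh2, the potassium channel of cardiac repolarization, went from 7.52, 7.08 and 7.48 to 4.20, 3.24 and 4.13 and averaged 8.73 at day 12. Myrf, a membrane-anchored transcription factor, was at 7.80, 6.20 and 7.16, then 3.63, 4.12 and 3.38, then 8.78 at day 6. For these 4 genes all day 4 arrays were below all growth arrays, and 54.9% of all genes tested had no overlap in either direction. Uchl1, a deubiquitinase, Cdc42ep3, a Cdc42 effector, Sec24d, of vesicle coats, Mfsd6, a transporter-like protein, Retreg1, a receptor for turnover of endoplasmic reticulum, and Mest completed the 10, at 3.60, 4.43, 4.80, 3.10, 2.73 and 3.55 log2 below the later days.

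**Figure D4:**
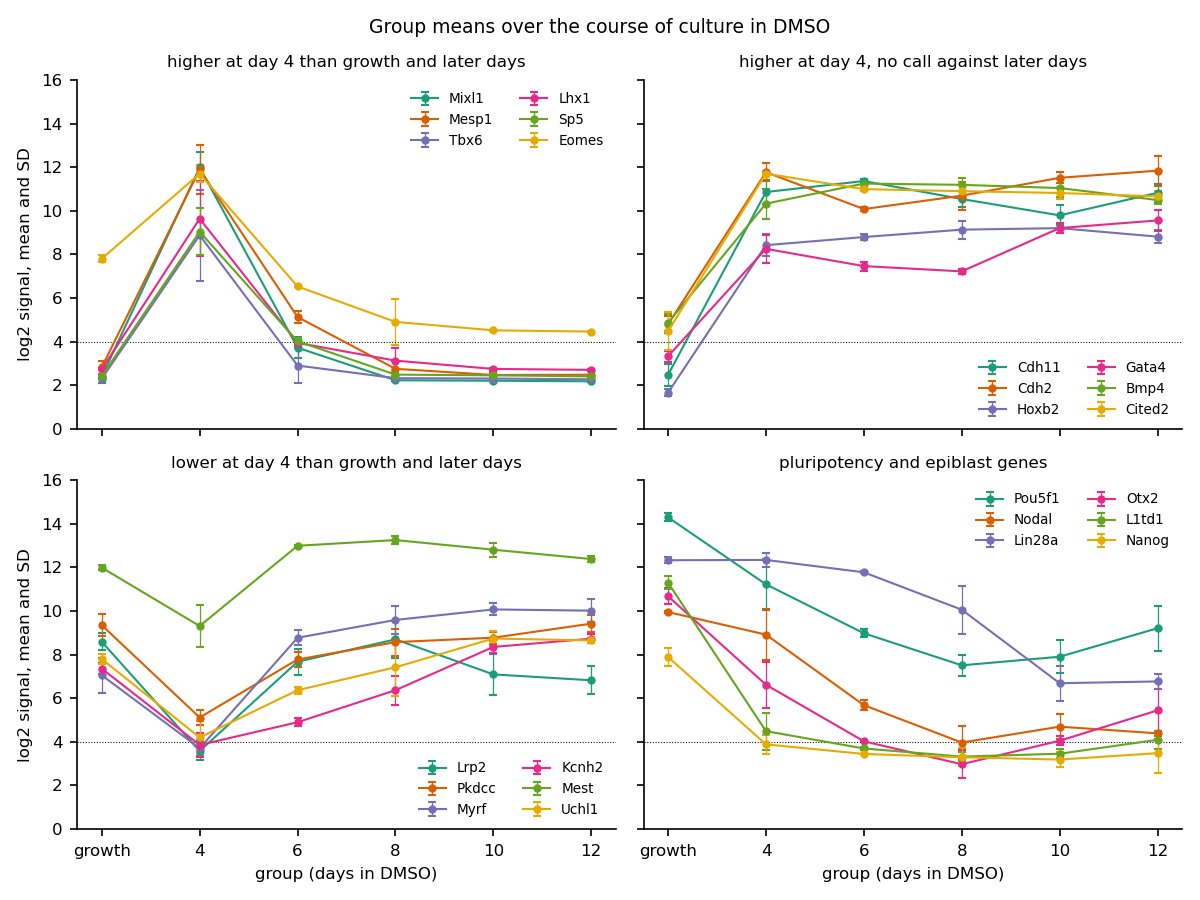
Group mean log2 signal with SD (y axis) in growth and at days 4, 6, 8, 10 and 12 (x axis; n = 3, or 2 at days 6 and 12) for 6 genes in each of 4 panels, with a dotted line at the dim cutoff. Mixl1, Mesp1, Tbx6, Lhx1 and Sp5 have their highest mean at day 4, Cdh11 and Cdh2 keep their level, and Lrp2 and Myrf have their lowest mean at day 4.

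The 3 day 4 cultures differed widely for some genes. Median SD over genes was 0.20 at day 4 and 0.23 in growth, so day 4 was not the more spread group in general. Growth had genes of wide spread too, such as Spon1 with an SD of 1.92. Between day 4 arrays some genes spanned several log2. The 10 with the widest range, after dim values were set to 4, were taken for description. Hoxb1 (3.81, 9.29 and 8.58 on A, B and C), the Wnt antagonist Frzb (3.22, 8.73 and 7.96) and the sulfotransferase Chst7 (4.70, 9.25 and 8.77) were low on array A. The giant scaffold protein Ahnak (8.50, 3.78 and 5.33) and the muscle LIM protein Pdlim3 (8.34, 4.44 and 6.28) were high on it. Ahnak was called higher, but not without growth replicate B (adjusted p = 0.0778). Homer2, a synaptic scaffold (8.57, 4.57 and 6.65), and the myosin chaperone Unc45b (7.94, 3.99 and 5.75) were high on A as well and not called. Krt18, Tdgf1 and Dll1, given above, completed the 10. Counted over the gene lists, array A was the lowest of the 3 for 11 of the 12 streak factors that rose and for all 6 paraxial genes that rose, which share Tbx6 and Msgn1. Array B was the lowest for 13 of 18 BMP genes that rose and for 7 of 11 lateral mesoderm genes, and array A for 3 and 4 of them. Over all genes called higher, B was the lowest for 41.9% and A for 45.2%. Array A was the highest for all 7 imprinted genes that rose, with Igf2 at 11.94, 8.63 and 9.99, and for 26.3% of all genes called higher.

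Over the 9787 genes above 4 on a day 4 array, A was the lowest for 35.5%, B for 44.7% and C for 19.9%. Of the 357 genes higher than growth and later days A was the lowest for 63.3%, against 45.2% of all genes called higher, and C was the highest for 61.9%, against 52% of those and 49.2% of all 9787. Among 144 genes above 4 on a day 4 array that were higher than growth but lower than later days, A was the highest for 76, B for 25 and C for 43. For A this is 52.8%, against 26.3% of all genes called higher and 29.8% of all 9787. On the line from the mean of growth (0%) to the mean of day 6 (100%), over all genes tested, array A lay at 83.9%, C at 79.8% and B at 77.5%. Growth arrays lay at -1.6 to 2.6%. Hand1 (7.10, 4.05 and 7.20), Isl1 (5.67, 3.59 and 5.65), Tbx2 (5.69, 2.58 and 6.03) and Bmp5 (7.50, 2.78 and 5.44) were close on A and C or highest on A, and lowest on B. Whether the cultures differed in time, density or handling is not in the labels and was not tested.

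**Figure D5:**
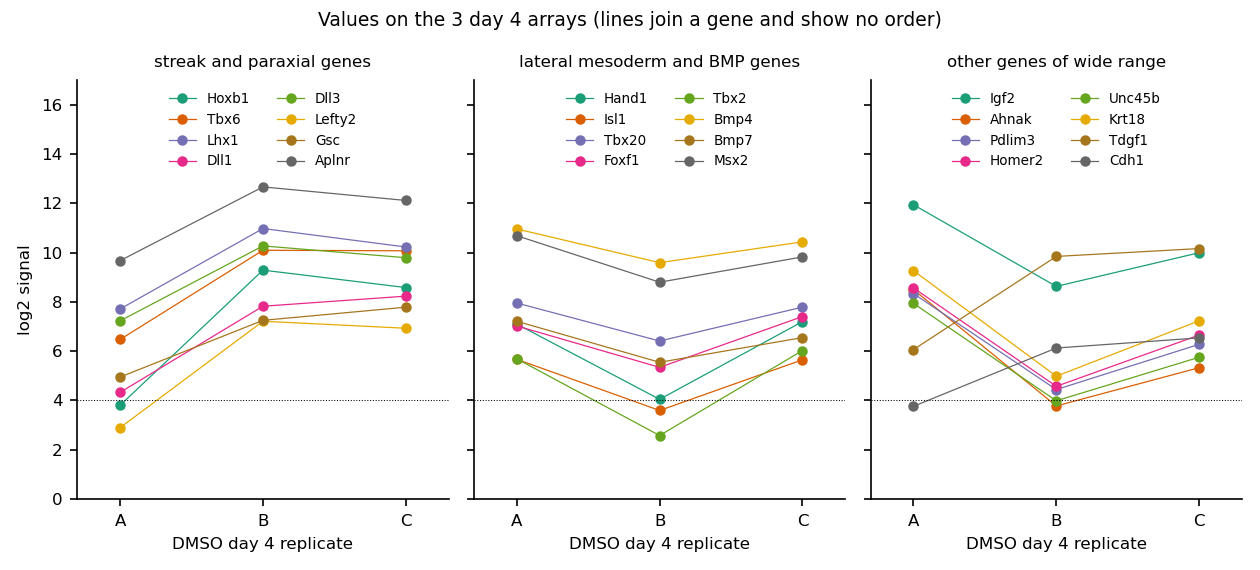
Log2 signal (y axis) on the day 4 arrays of replicates A, B and C (x axis) for 8 genes in each of 3 panels, picked after their values were seen, with a dotted line at the dim cutoff. The genes drawn in the first panel, which include Aplnr of the lateral list, are lowest on A. Those drawn in the second panel are lowest on B. Of the list members that rose, A was the lowest for 4 of 11 lateral and 3 of 18 BMP genes. Igf2, Ahnak and Krt18 are highest on A.

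Along the chromosomes, runs of neighbouring tested genes called in the same direction were short: the longest held 6 genes, and 4 runs held 5 or more. On chromosome 6 (4600911 to 5433022 of GRCm38.p6) Casd1, Sgce, Peg10, Ppp1r9a, Pon2 and Asb4 were all higher, by 1.22, 1.28, 2.06, 1.10, 1.22 and 9.90 log2. This stretch is the imprinted region of Peg10. When probe sets of a gene were averaged and not the brightest taken, Casd1 (0.95 log2), Sgce (0.72) and Ppp1r9a (0.40, adjusted p = 0.282) were not called. The calls of Peg10 and Ppp1r9a were lost without day 4 replicate A (adjusted p = 0.0558 and 0.0713), as were that of Peg10 without growth replicate B (0.0566), that of Ppp1r9a without growth replicate A (0.0827) and that of Sgce without day 4 replicate A (0.98 log2). A run of 6 lower genes on chromosome 17 (23673608 to 23786216) held Hcfc1r1, Tnfrsf12a, Cldn6, Pkmyt1, Flywch1 and Flywch2. The runs of 5 were Klhl7, Nupl2, Kcnh2, Abcb8 and Cdk5, lower, on chromosome 5 (24100565 to 24423587), and Casp2, Zyx, Epha1, Tcaf1 and Arhgef5, higher, on chromosome 6 (42264902 to 43289320). With the mean of probe sets Nupl2 (-0.90 log2) and Zyx (0.52, adjusted p = 0.126) were not called. In each of the other 3 runs some calls were lost when 1 array was left out. That of Flywch2 was lost without day 4 replicate A or B or growth replicate B or C (adjusted p 0.0676 to 0.0741), that of Cdk5 without growth replicate C or day 4 replicate B (-0.94 and -0.98 log2) and that of Abcb8 without growth replicate C (-0.96). The call of Zyx was lost without replicate B or C of either group (adjusted p 0.056 to 0.118) and that of Epha1 without growth replicate A or day 4 replicate C (adjusted p = 0.054 and 0.053).

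Probe sets of a gene often differed in call and seldom in direction. Of 4968 genes with 2 or more tested probe sets, 1936 had 1 or more called, and 1280 of these also had a tested probe set with no call. Of the 952 with 2 or more called, 937 had all called ones in 1 direction and 15 did not. The phosphatase subunit Ppp2r5c, with the largest gap, had probe sets at 1.94 and -2.49 log2, and Nisch had 1.73 and -2.23. Cflar, Mrs2, AU022252 and Rimklb also had probe sets called each way, so their direction at day 4 depends on the probe set read. Rimklb, by its probe set of highest mean, fell by 1.13 log2, or by 0.99 without growth replicate C, and Cflar and Mrs2 rose by 1.09 and 1.15, or by 0.94 and 0.91 without growth replicate A. Mrs2 was also at 0.95 without day 4 replicate C.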

How the data were processed

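RNA of 16 P19CL6 samples had been hybridised to Affymetrix arrays with 45101 probe sets, and the authors deposited normalised log2 values, made with GCRMA per the submitters' processing notes (version not given in the sources used here). The log2 scale was read from the range of the values, 0.86 to 15.86, and GCRMA brings all arrays to nearly 1 distribution (medians 3.16 to 3.21), so a shift of total RNA cannot be seen. Probe sets with 1 gene symbol (34945, 18193 genes) were used. Those above 4 on at least 2 arrays were kept, and the one of highest mean was taken per gene (10802 genes).

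Groups were compared by limma (version 3.58.1, R 4.3.3) with a fit to all 16 arrays, 1 mean per group, eBayes and Benjamini-Hochberg adjustment over 10802 genes, tested on simulated data. Promoter sequences are RefSeq's, GRCm38.p6. Members and gene lists were chosen with earlier results of these data known. Genes were named by rule: the 20 largest changes each way without overlap, up to 6 called members per list with any that went against the list, markers, the 10 widest day 4 ranges, the 10 most extreme each way against growth and later days, neighbour runs and opposed probe sets. Further list members were picked after their values were seen. P-values measure the spread between cultures of 1 line. Alternatives varied the filter, normalisation, probe sets, thresholds, model and arrays.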

Additional observations from a re-analysis of the deposited data

Results flagged for a closer look

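Probe sets that name no gene or several genes were outside all comparisons above, and some of them moved. Of 1685 probe sets with no gene name that passed the filter, 245 were higher and 121 lower at day 4 by the same thresholds, with a largest rise of 7.38 log2. Of 535 probe sets that name several genes, 59 were higher and 51 lower. Their transcripts are unnamed here, and no gene was assigned to them.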

How the results depend on the processing

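The direction of the named genes held in nearly every alternative: of 235 named genes called, 144 kept the call under all of them, 188 under all but the stricter thresholds, and 2 reversed, when probe sets of a gene were averaged in place of taking the brightest (Cflar -0.57 log2, Mrs2 -0.50 log2, both without a call). With only the 6 arrays compared, Ahnak, Aldh1a2, Epha1, Fgf5, Frzb, Gbx2, Lefty2, Mrs2, Msgn1, Pcdh8, Peg10, Tdgf1 and Wnt3 lost the call. So did H2-D1, Slc16a3, Spon1 and Sycp3. With values under 4 set to 4 it was lost for Aldh1a2, Fgf5, Gap43, Mbnl3, Porcn, Psmb8, Sec24d, Sfrp1, Tex19.1 and Tnni1. The mean of probe sets also lost that of Ahnak, AU022252, Bop1, Casd1, E2f3, Mbnl3, Nupl2, Ppp1r9a, Rimklb, Sfrp1, Sgce and Zyx. With no dim filter Ahnak, Aldh1a2, Cldn3, Des, Lefty2, Psmb8, Sfrp1, Spon1, Tdgf1 and Zyx were not called. The counts turned mainly on the minimum difference. At 2 log2, 470 genes were higher, 441 lower, 117 higher than growth and later days and 33 lower than both. With no minimum these were 2529, 2674, 891 and 745. Leaving out 1 array at a time gave 1242 to 1541 higher, 1384 to 1591 lower, 287 to 412 higher than both and 209 to 286 lower than both. Quantile normalisation a second time gave 1348 higher and 1548 lower. Of 70 counts over gene lists, 21 moved by over 1.5 times under an alternative other than the thresholds, among them many counts of 0 to 2. With only the 6 arrays compared, 1362 genes were higher and 1400 lower, and no comparison with later days was possible. The share of higher among called genes was 49.5% and ranged from 44% to 52.2%. For RNA integrity, the 3′ minus middle difference of day 4 against growth was -0.18 log2 for Actb (two-sided exact permutation p = 0.1, the smallest 3 against 3 arrays allow) and 0.04 for Gapdh (exact p = 0.6). The number of arrays and the closeness of many signals to background limit what dim genes can show.

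The letters A, B and C are shared by the groups. With the letter as a replicate block 1447 genes were higher and 1474 lower, of which 1437 and 1468 were also called without it. Deviations of same-letter day 4 and growth arrays correlated at 0.0874, 0.0703 and 0.2682, and each day 4 array correlated best with the growth array of its own letter. The labels do not say what the letters mark, so the samples were not treated as pairs.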
